A study of Homo sapiens with 6 samples.

Results

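The 7 genes ZNF542P, ZNF583, ZNF667, ZNF471, ZFP28, ZNF470 and ZNF71 lie next to each other on the long arm of human chromosome 19, in this order in the RefSeq gene table. They were picked from the p16 and mock samples compared here because their levels differed between the groups, so their difference is described below and not tested. All probe sets annotated to exactly 1 of these genes were taken, 18 probe sets for 7 of the 19775 named genes on the array. Expression had been measured on Affymetrix HG-U133 Plus 2.0 arrays in cells of Capan-1, a human line established from a pancreatic carcinoma. The 3 p16 samples came from cells carrying full-length p16INK4a cDNA behind the cytomegalovirus promoter of the vector pRC/CMV, and the 3 mock samples from mock-transfected cells. The labels describe the same growth medium and the same selection with hygromycin and G418 for all 6 samples, number them V1 to V3 in each group, and do not say whether transfectants were pools or single clones, or what a V number stands for. Nothing states that the 3 samples of a group were grown as separate cultures; the spread between them, and any p-value based on it, may therefore be technical.

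Zinc finger genes of this kind encode proteins with a row of C2H2 fingers, each of which contacts a few bases of DNA, and most of those on chromosome 19 arose by repeated local duplication. Many carry a KRAB domain, which recruits the co-repressor TRIM28 and through it the histone methyltransferase SETDB1, HP1 proteins and DNA methyltransferases to the bound site, transposable elements above all. Promoters of several zinc finger genes of 19q are described in the literature as methylated and silent in carcinomas. DNA methylation was not measured in these samples.

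All values below are log2 expression levels, in which 1 unit is a doubling. GCRMA, the method behind them, removes background by a model of probe base composition, so that probe sets without signal settle at a nearly constant value under about 4. A level under 4 is called the floor here, and a fold against a group at the floor is a lower bound, computed against 4. Each probe set has its own response, so levels and bounds of different probe sets give no order of RNA amounts. Levels were still used to pick the brightest probe set of a gene and to sum cell type markers.

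The groups differed in far more than the transfected gene. CDKN2A, which encodes p16, read 11.92, 11.96 and 11.88 in p16 samples V1 to V3, against 2.03, 2.03 and 2.02 in mock samples on 1 of its 3 probe sets. On its brightest it read 12.12, 13.01 and 12.67 in p16 samples, against 5.61, 6.43 and 6.01 in mock samples, above the floor in both groups, and the remaining one was at the floor in all 6. Its chromosome 9 neighbours MTAP and KLHL9, which the cDNA does not include, read 11.05 ± 0.29 and 11.51 ± 0.21 (SD, n = 3) in p16 samples and 2.07 ± 0.01 and 2.72 ± 0.01 in mock samples. CDKN2B, beside CDKN2A, read 8.77 ± 0.26 in p16 and 2.35 ± 0.01 in mock samples. Among 11658 genes tested across the array, 4895 were called (limma, Benjamini-Hochberg adjusted p under 0.05), which is 42%. When the V number was added as a replicate block, 7916 were called, or 67.9% (32.4% higher and 35.5% lower). What the zinc finger genes did therefore cannot be told apart from whatever else separates the 2 sets of cells. Of 9 duct epithelium markers on the array, KRT7, KRT8 and 6 others were at 4 or above in every sample of both groups and CFTR was at the floor in all, but their summed level ran from 15.65 to 15.93 in p16 samples and from 17.24 to 17.44 in mock samples on the log2 scale, and 6 of 8 tested were lower and none higher. All 4 leukocyte and all 4 endothelial markers measured were at the floor in every sample. Of 6 fibroblast markers, COL1A2, COL3A1 and DCN were at the floor in every sample. COL1A1 was on in every sample and not called (7.76 ± 0.27 in p16 and 7.89 ± 0.40 in mock samples). LUM read 8.92 ± 0.42 in p16 and 2.72 ± 0.02 in mock samples. PDGFRB read 4.31, 5.65 and 3.71 in p16 samples and was at the floor in mock samples. The summed level ran from 9.19 to 9.88 in p16 and from 7.87 to 8.48 in mock samples. Whether these shifts have a part in the zinc finger result was not tested.

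Each of the 7 genes was on in p16 cells and off in mock cells by its brightest probe set. Levels are averages over the cells of a sample, so fewer expressing cells and less RNA per cell cannot be told apart. ZNF542P, a transcribed pseudogene of the family, read 13.23, 11.97 and 11.85 in p16 samples V1, V2 and V3, against 2.47, 2.48 and 2.45 in mock samples. Its other probe set read 11.61, 12.29 and 11.91 in p16 samples and 2.52, 2.53 and 2.51 in mock samples. Both probe sets were thus far above the floor in every p16 sample, at least 327-fold on the first and at least 245-fold on the second, but they placed V1 at opposite ends of the p16 group.

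ZNF583, which codes for a KRAB zinc finger protein, read 6.69, 7.77 and 7.55 in p16 samples and 1.91, 1.91 and 1.90 in mock samples, at least 10.1-fold higher. ZNF667, whose rat counterpart Mipu1 was named for its induction in ischaemic heart muscle, read 9.59, 9.95 and 9.94 in p16 samples, against 2.50, 2.51 and 2.49 in mock samples, at least 56.7-fold higher. Its p16 values spanned 0.36, the narrowest range among the 9 probe sets that were on in all p16 samples. The other ZNF667 probe set gave 9.40, 9.21 and 8.76 in p16 and 2.68, 2.69 and 2.67 in mock samples, at least 34.9-fold higher. The groups did not overlap on these probe sets, which is not read as a result. The genes were picked for their difference, and the share of all probe sets without overlap was not counted. Even the silent ZNF583 probe set, 1563725_at, did not overlap (2.16 to 2.20 in p16 and 2.14 to 2.15 in mock samples).

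ZNF471, a KRAB protein described as a repressor that works through TRIM28, read 6.80, 5.97 and 5.82 in p16 samples and 2.69, 2.71 and 2.68 in mock samples, at least 4.58-fold higher. ZFP28 read 7.08, 6.02 and 5.996 in p16 samples, against 2.43, 2.45 and 2.42 in mock samples, at least 5.15-fold higher. On both of these probe sets V1 was the highest p16 sample, with V2 and V3 close together. ZNF470, represented by a single probe set, read 5.58, 6.06 and 6.53 in p16 samples and 2.22, 2.23 and 2.21 in mock samples, at least 4.15-fold higher. ZNF71, first described as a tumour necrosis factor-induced endothelial zinc finger gene, read 7.85, 7.31 and 6.80 in p16 samples and 1.84, 1.85 and 1.84 in mock samples, at least 9.97-fold higher. These bounds rest on the value chosen for the floor, and a floor of 5 lowers each of them 2-fold by construction.

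**Figure D1:**
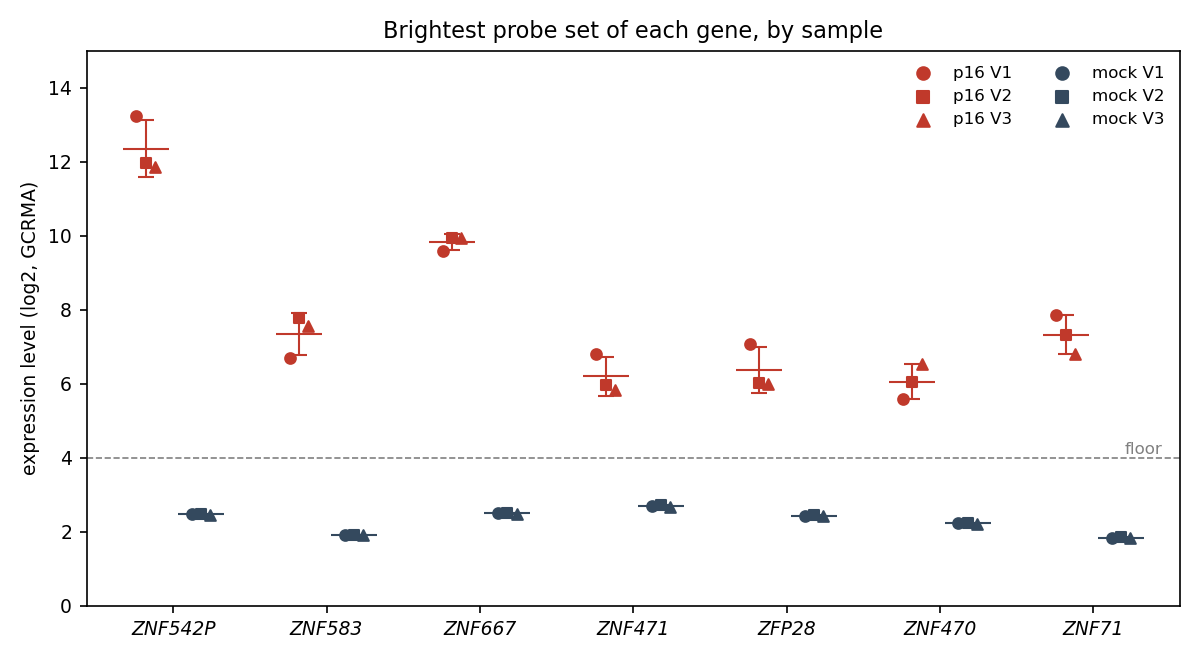
Log2 expression level (vertical axis) of the brightest probe set of each of the 7 genes, in RefSeq gene order, for p16 samples (red, left) and mock samples (dark, right); symbols give the V number, horizontal lines the mean and bars the SD over 3 samples. Every p16 value lies above the dashed floor at 4, from 5.58 for ZNF470 to 13.23 for ZNF542P, and every mock value below it.

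Over the 7 brightest probe sets the difference between p16 and mock means ran from 3.50 to 9.89 with a median of 5.43, or a median of 3.32 with mock values raised to the floor. Across the array, 408 of 19775 genes showed the same all-or-none pattern, every p16 sample at 4 or above and every mock sample under 4, which is 2.06%. The opposite pattern occurred in 516 genes (2.61%). Since the 7 genes were picked from this contrast, their own count is not read against these shares. The mock values say nothing of spread between cultures: the largest SD among the 18 probe sets was 0.10, and over the 29917 probe sets with all mock samples at the floor the median mock SD was 0.01.

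Not every probe set of these genes was on. In p16 samples, 9 of the 18 were at 4 or above in all 3 samples, 2 in V2 and V3 alone and 7 in none. In mock samples all 18 were under 4, between 1.84 and 3.01. The silent ones were 1 of 2 for ZNF583, 2 of 3 for ZNF471, 1 of 4 for ZFP28 and 3 of 4 for ZNF71, and none exceeded 3.72 in any sample. That highest value was p16 V1 on the ZNF471 probe set 232117_at, whose other p16 samples read 2.74 and 2.77. Only the 9 probe sets on in all p16 samples met the filter for testing, at least 4 in at least 3 samples, and they met it through their p16 values.

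ZFP28 was the gene whose probe sets disagreed most. While 231943_at was highest in p16 V1, 234300_s_at read 2.19 in p16 V1 and 6.62 and 7.20 in V2 and V3, with mock samples at 2.09, 2.09 and 2.08. On 234937_x_at the p16 samples read 2.80, 7.09 and 6.95, against 2.05, 2.06 and 2.04 in mock samples. V1 was thus at the floor on both of these probe sets and above V2 and V3 on the first. The suffixes mark probe sets whose probes are shared among transcripts (_s_at) or partly match other sequences (_x_at), so neither is certain to report ZFP28 alone. Among all 54613 probe sets, 144 had p16 V1 under 4 with V2 and V3 at 6 or above, against 0 with V2 and 3 with V3 as the low sample. The reverse, p16 V1 at 6 or above with V2 and V3 under 4, held for 38. In the mock group the same counts for V1 were 94 low and 39 high.

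**Figure D2:**
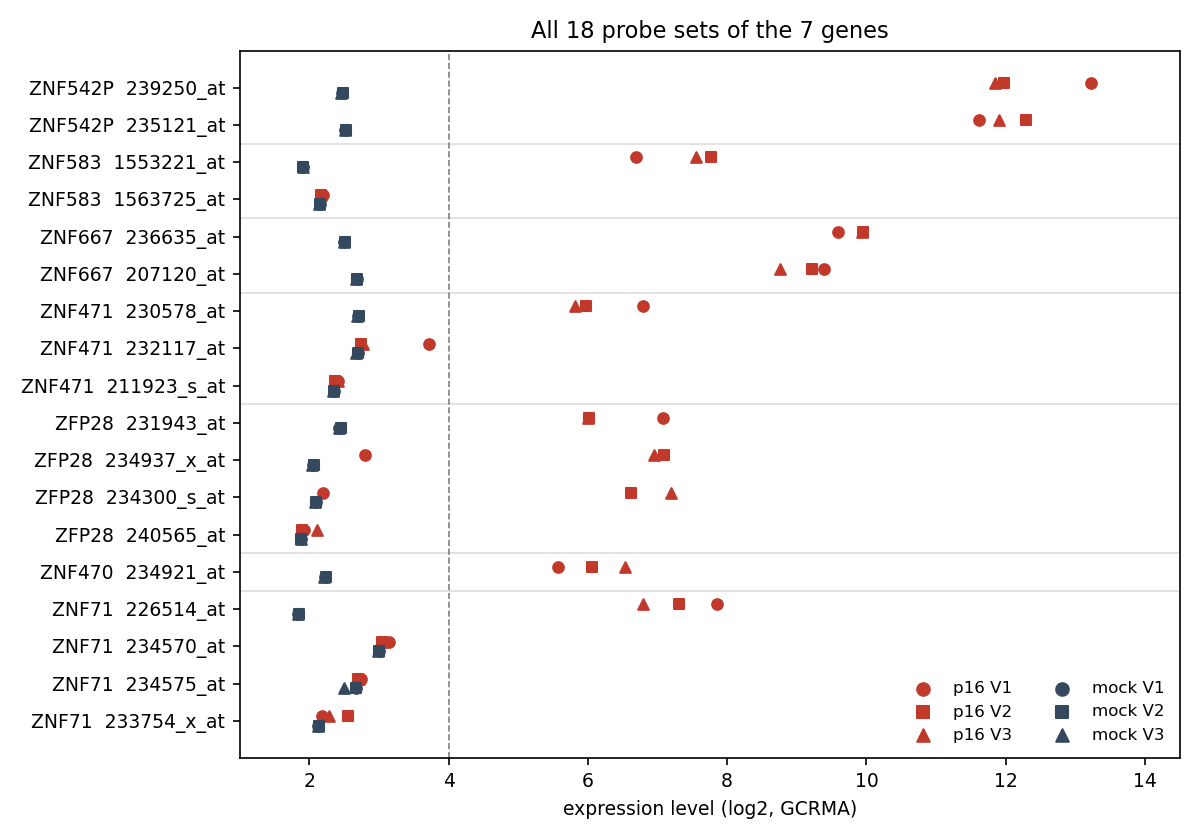
Log2 expression level (horizontal axis) of all 18 probe sets of the 7 genes, with p16 samples in red above mock samples in the dark colour and symbols for the V number. The 2 ZFP28 probe sets 234937_x_at and 234300_s_at have p16 V1 left of the dashed floor at 4 and V2 and V3 between 6.62 and 7.20, and 7 probe sets stay at the floor in every sample.

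The V number, a label not used to pick the genes, was tested in a fit with group and number as factors (limma moderated F test). None of the 7 genes was called, with adjusted p from 0.34 to 0.57 and 0 at an unadjusted p under 0.05, while 3758 of 11658 genes across the array were (32.2%). The fit looks for a shift that both groups share, and with mock values held at the floor it can hardly call one that p16 samples alone show. Within the p16 group the 9 probe sets on in all samples spanned 0.36 to 1.38, and V1 was the highest sample on 5 of them and the lowest on 4. By brightest probe set, V1 was highest for ZNF542P, ZNF471, ZFP28 and ZNF71 and lowest for ZNF583, ZNF667 and ZNF470. The place of V1 also changed between probe sets of the same gene. V1 was lowest on the other ZNF542P probe set (11.61) and highest on the other ZNF667 probe set (9.40). On 234300_s_at and 234937_x_at of ZFP28 it was at the floor. Whether neighbouring genes shared an order of p16 samples therefore cannot be told from these probe sets.

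In the interval from ZNF542P to ZNF71 the 7 picked genes and ZNF667-AS1 showed the all-or-none pattern. No gene measured within 20 places outside it did. The ends of the interval are the outermost of the picked genes, and most flanking genes have no probe set, so where the pattern stops is not located. RefSeq lists 17 genes in this interval, of which 10 are on the array. Besides the 7 genes, the antisense transcript ZNF667-AS1 read 12.13, 11.44 and 11.60 in p16 samples, against 2.15, 2.16 and 2.14 in mock samples. ZNF582, a KRAB gene often reported as methylated in carcinomas, read 3.04, 4.02 and 4.46 in p16 samples and 2.93, 2.96 and 2.92 in mock samples on its single probe set, so V2 and V3 barely left the floor and V1 did not. ZNF582-DT, its divergent transcript, was at the floor in all 6 samples. Thus 8 of the 10 were on in every p16 sample and off in every mock sample, beside 2.06% of all genes on the array. The 7 picked genes make up most of this count and set the ends of the interval, so it is not read against that share. Of the genes not picked, ZNF667-AS1 showed the pattern, on an _s_at probe set, and ZNF582 and ZNF582-DT did not.

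Before ZNF542P, the array holds 5 of the 20 preceding genes. ZNF787, ZNF444 and ZSCAN5A were above the floor in all 6 samples, and GALP and EDDM13 in none. ZSCAN5A, a SCAN domain zinc finger gene, read 7.76, 8.06 and 8.41 in p16 samples and 6.19, 6.97 and 7.44 in mock samples. Its difference of 1.21 (SE 0.37, limma adjusted p = 0.048, with the block 0.0035) was no longer called in the fit without the block when it was run without p16 V1, p16 V2, p16 V3, mock V1 or mock V2, with adjusted p up to 0.15. ZNF444 averaged 9.12 ± 0.13 in p16 and 8.64 ± 0.31 in mock samples (SD, n = 3), not called without the block (limma adjusted p = 0.13) and called with it (limma adjusted p = 0.029). ZNF787 averaged 7.42 ± 0.58 in p16 and 7.17 ± 0.43 in mock samples (limma adjusted p = 0.64, with the block 0.17). After ZNF71, the array holds 6 of the 20 following genes, SMIM17, ZNF835, PEG3, PEG3-AS1, USP29 and ZIM3, and all were at the floor in every sample. PEG3 and USP29 belong to an imprinted domain, in which one parental copy is silent.

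**Figure D3:**
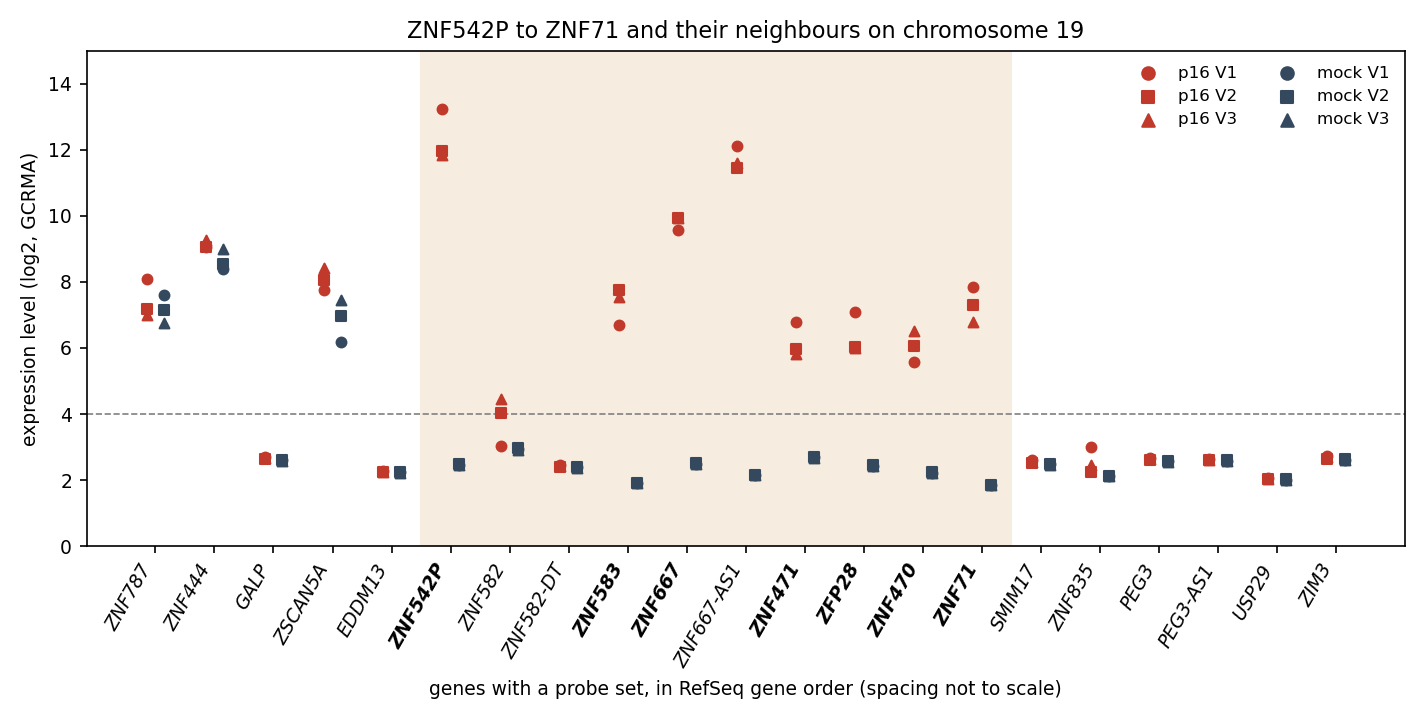
Log2 expression level (vertical axis) of every gene with a probe set from 20 RefSeq places before ZNF542P to 20 after ZNF71 on chromosome 19, brightest probe set each, with p16 samples in red on the left and mock samples in the dark colour on the right of each gene. The shaded interval holds 10 genes on the array, the 7 genes in bold among them; 8 are above the dashed floor at 4 in every p16 sample, none is in any mock sample, and the 6 genes to the right stay at the floor.

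Promoters are shown because the genes were on or off together over a run of neighbours. RefSeq promoter sequences (GRCh38.p14) were at hand for ZNF583, ZNF667, ZNF470 and ZNF71. The 250 bases before a transcription start are printed 5′ to 3′ on the gene's own strand, with each CpG dinucleotide, the base pair step that carries DNA methylation, in capitals. They come from chr19:56403764-56404013 on the plus strand for ZNF583, chr19:56477346-56477595 on the minus strand for ZNF667, chr19:56567218-56567467 on the plus strand for ZNF470 and chr19:56595052-56595301 on the plus strand for ZNF71.
ZNF583: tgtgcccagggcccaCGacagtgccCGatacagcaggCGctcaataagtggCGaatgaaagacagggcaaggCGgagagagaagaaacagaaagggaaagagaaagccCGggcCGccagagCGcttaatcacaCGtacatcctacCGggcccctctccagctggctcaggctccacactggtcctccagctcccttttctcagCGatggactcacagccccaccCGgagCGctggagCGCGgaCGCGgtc
ZNF667: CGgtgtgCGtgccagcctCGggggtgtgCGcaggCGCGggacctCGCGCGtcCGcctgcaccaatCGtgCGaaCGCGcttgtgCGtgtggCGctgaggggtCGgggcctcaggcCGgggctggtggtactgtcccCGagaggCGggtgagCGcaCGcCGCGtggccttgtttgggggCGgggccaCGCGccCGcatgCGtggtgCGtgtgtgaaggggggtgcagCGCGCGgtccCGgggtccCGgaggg
ZNF470: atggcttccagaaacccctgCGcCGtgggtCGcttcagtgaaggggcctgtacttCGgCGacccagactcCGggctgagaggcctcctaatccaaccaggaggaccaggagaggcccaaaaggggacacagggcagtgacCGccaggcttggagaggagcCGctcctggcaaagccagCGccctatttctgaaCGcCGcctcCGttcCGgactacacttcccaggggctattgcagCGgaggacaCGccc
ZNF71: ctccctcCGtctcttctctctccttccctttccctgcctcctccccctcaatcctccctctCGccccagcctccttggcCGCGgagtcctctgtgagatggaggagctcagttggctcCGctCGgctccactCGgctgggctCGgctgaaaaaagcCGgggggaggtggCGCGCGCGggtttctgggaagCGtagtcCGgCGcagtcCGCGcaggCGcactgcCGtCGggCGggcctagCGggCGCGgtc

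The ZNF667 stretch holds 35 CpGs, more than 94.2% of the 35116 RefSeq promoter entries of the same length. ZNF71 has 25 and ZNF470 has 15. ZNF583 has 17 in the stretch shown and 23 before a second start 318 bases downstream. The median over all entries was 11, with quartiles at 3 and 23, and over 280 entries of other chromosome 19 zinc finger genes it was 16. All 5 entries thus lie above the overall median, and ZNF470 lies just below that of other zinc finger genes of the chromosome. Of the flanking genes, ZSCAN5A, on in all samples, has 4 entries with 24, 13, 22 and 15, ZNF444, also on in all samples, has 19, and ZNF835, off in all samples, has 25. Inside the interval, ZNF582, at or near the floor in all samples, has 23, and ZNF582-DT, at the floor in all samples, has 29. The counts of these neighbours and of the 4 genes shown overlap. ZNF667 and ZNF667-AS1 run in opposite directions from starts 529 bases apart, and ZNF667-AS1 has 21 CpGs before the nearer of its starts.

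**Figure D4:**
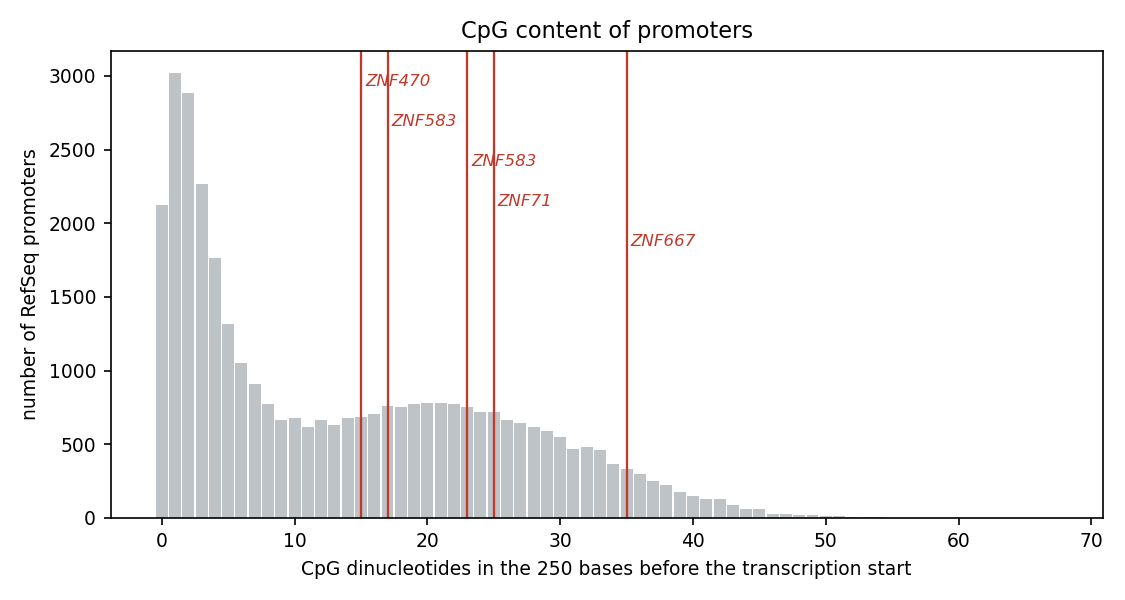
Number of RefSeq promoter entries (vertical axis) by the count of CpG dinucleotides in the 250 bases before the start (horizontal axis); red lines mark the 5 entries of ZNF470, ZNF583, ZNF71 and ZNF667. The red lines run from 15 for ZNF470 to 35 for ZNF667, above the median of 11.

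A search of both strands for 7 short motifs found few in these 5 entries. The GC box GGGCGG occurred in ZNF667, in ZNF71 and before the second ZNF583 start, and in 42.6% of all entries. The CCAAT box CCAAT occurred in ZNF667 and in 32.0% of all entries. The ETS motif CCGGAAGT (3.42% of all entries), the CRE TGACGTCA (1.65%), the E2F motif TTTGGCGC (0.55%), the NRF1 core GCGCATGC (2.63%) and the Kaiso core TCGCGAGA (1.03%) had no match, which says only that these letters are not in the 250 bases; longer or looser forms of a motif were not counted. The motifs were chosen after the expression values were known. No motif was shared by all 5 entries.

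Other zinc finger genes of chromosome 19 were more often higher than lower in p16 cells. Besides the 7, the array holds 227 such genes, of which 164 passed the filter, and 71 were higher, 11 lower and 82 not called (limma, adjusted p under 0.05). That is 43.3% higher and 6.71% lower, beside 19.5% and 22.5% of all genes tested. A gene at the floor in 1 group could pass the filter through the other group alone. Without the filter 64 of the 227 were higher and 8 lower. Zinc finger genes of other chromosomes had 52 higher and 45 lower of 221, or 23.5% and 20.4%, and the remaining genes of chromosome 19 had 94 higher and 132 lower of 641, or 14.7% and 20.6%. The median difference was 0.74 in the first set, 0.13 in the second and -0.02 in the third, and -0.03 over all genes tested; without the filter that of the first set was 0.33. With the block, 90 were higher and 18 lower in the first set. In the fit without the block, the lower ones numbered 7 when p16 V2, p16 V3 or mock V3 was left out.

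Counted without the filter, 23 of the 227 (10.1%) were on in every p16 sample and off in every mock sample, and 1 (0.44%), ZNF558, showed the opposite. The fitted difference, which gives no order where mock values are at the floor, named ZFP82, ZNF788P, ZNF415, ZNF347 and ZNF677 among the genes that rose. ZFP82 read 11.49 ± 0.04 in p16 and 2.09 ± 0.01 in mock samples (SD, n = 3), at least 180-fold higher (limma adjusted p = 3.7e-06). The pseudogene ZNF788P was at least 35.6-fold higher, ZNF415 at least 31.7-fold, ZNF347 at least 20.2-fold and ZNF677, another gene reported as methylated in tumours, at least 26.9-fold. All 5 were at the floor in every mock sample. Of genes chosen here after their values were seen, ZNF573 was at least 31.3-fold higher. ZNF404, chosen in the same way and above the floor in both groups, averaged 11.44 in p16 and 5.54 in mock samples, a difference of 5.90. Among the genes that fell, the fitted difference named, again with no order against the floor, ZNF558 (3.15 ± 0.24 in p16 and 7.16 ± 0.11 in mock samples, at least 8.94-fold lower, limma adjusted p = 4.5e-05), ZFP36, ZNF57, ZNF77 and ZNF14. ZFP36, which carries CCCH fingers and destabilises mRNA and so belongs to the set by its symbol only, was 14.7-fold lower, and ZNF14 6.48-fold lower. ZNF57 was at least 11.4-fold lower (limma adjusted p = 0.012, and up to 0.049 with 1 sample left out) and ZNF77 at least 5.50-fold lower (limma adjusted p = 0.0064).

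**Figure D5:**
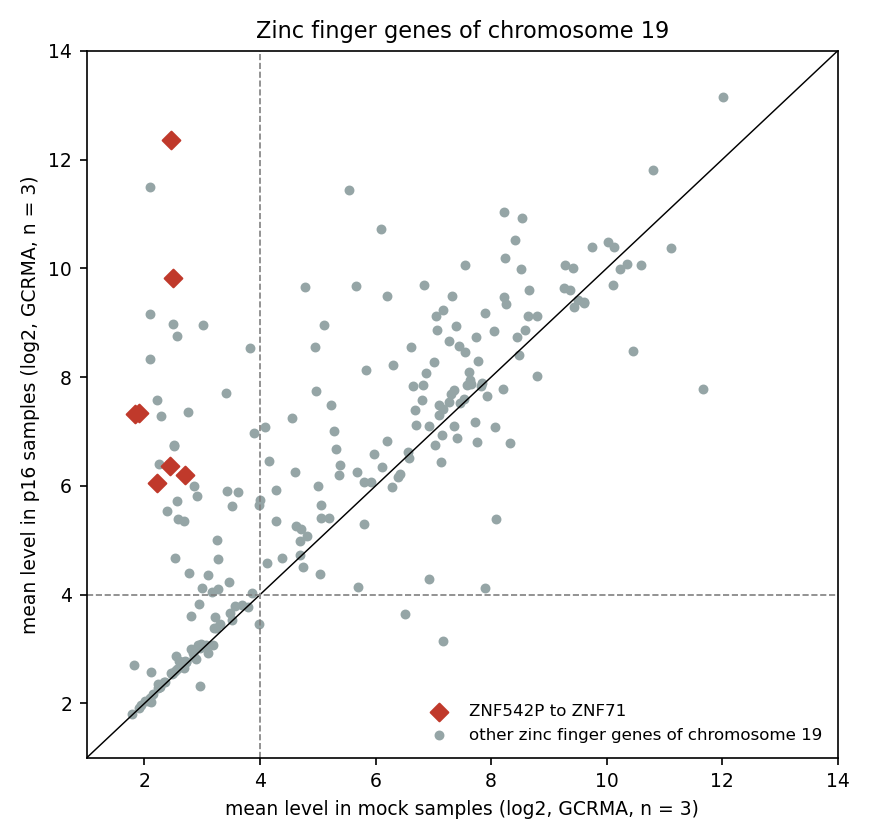
Mean log2 level in 3 p16 samples (vertical axis) against the mean in 3 mock samples (horizontal axis) for the 7 genes ZNF542P to ZNF71 (red diamonds) and 227 other zinc finger genes of chromosome 19 (grey), brightest probe set each, with the line of equal levels and dashed floors at 4. The upper left field, on in p16 and off in mock cells, holds the 7 diamonds and 23 of the others that are on in every p16 sample; ZNF558 is the 1 gene with the opposite pattern.

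In a list of zinc finger genes described as methylated in carcinomas, ZNF582 and ZNF677 among them, 9 of 10 were on the array and 3 passed the filter, ZNF677 through its p16 values alone. All 3 rose, beside 19.5% of all genes tested, a count over those that passed and not over the list. These were ZNF677, ZNF331, by 2.07 (9.24 ± 0.15 in p16 and 7.17 ± 0.32 in mock samples, limma adjusted p = 0.0011), and ZSCAN18, by 0.62 (limma adjusted p = 0.029, with the block 0.013). In the fit without the block the ZSCAN18 call was lost without p16 V2, p16 V3 or any 1 mock sample. The other 6, PEG3 among them, did not reach 4 in 3 samples.

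TRIM28, the co-repressor that KRAB proteins recruit, was called neither without the block nor with it. It read 12.13 ± 0.45 in p16 and 11.99 ± 0.49 in mock samples (SD, n = 3), a difference of 0.13 (SE 0.35, limma adjusted p = 0.81, with the block 0.37). SETDB1 read 8.95 ± 0.71 in p16 and 9.12 ± 0.78 in mock samples (limma adjusted p = 0.84, with the block 0.24). Of 25 genes tested in the list of TRIM28 partners, 5 were higher, 4 lower and 16 not called, or 9 and 7 with the block, a share close to the 42% of all genes (67.9% with the block). The HP1 alpha gene CBX5 changed by -2.15 (limma adjusted p = 0.00055) on 2 of its 5 tested probe sets, and the deacetylase HDAC2 rose by 1.92 (limma adjusted p = 0.0042) on both of its own. The H3K9 methyltransferase genes SUV39H1 and EHMT1 differed by 1.67 and -1.08 (limma adjusted p = 0.029 and 0.036, with the block 0.0028 and 0.0030). In the fit without the block these calls were lost without p16 V2, p16 V3, mock V2 or mock V3, and that of SUV39H1 also without p16 V1. Also without the block, the list's count fell to 3 without p16 V2, 4 without p16 V3, 5 without mock V2 and 3 without mock V3.

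In a list of DNA demethylation genes and genes of methyl-CpG reader families, 3 of 8 tested were higher and none lower, or 7 and 0 with the block, beside 19.5% higher among all genes tested and 32.4% with the block. MBD3, a subunit of the NuRD complex and on the list by its family name only, rose on all 3 of its probe sets. On the brightest it rose by 1.57 (10.80 ± 0.35 in p16 and 9.24 ± 0.34 in mock samples, limma adjusted p = 0.0067, with the block 0.00060). ZBTB33, which encodes Kaiso, rose by 2.24 (limma adjusted p = 0.015, with the block 0.00059). In the fit without the block the ZBTB33 call was lost without mock V3. The glycosylase TDG rose by 2.38 (limma adjusted p = 0.048, with the block 0.0013). In the fit without the block its call was lost without p16 V1, p16 V2, p16 V3, mock V2 or mock V3.

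By profile over the 6 samples, the 5 genes outside the 7 that were nearest to their mean lay on other chromosomes. Likeness was the root mean square distance between log2 profiles centred on their own mean, over 6 samples, from the mean centred profile of the 7 genes. The 5 nearest other genes were SYT11, SALL2, HLA-DPA1, ADTRP and LOC105376944, at distances of 0.08 to 0.12, on chromosomes 1, 14, 6, 6 and 3. SYT11, a synaptotagmin, read 8.39, 7.90 and 7.85 in p16 samples, against 2.46, 2.47 and 2.45 in mock samples. Among genes with a ZNF, ZFP or like symbol, a rule that leaves out the zinc finger gene SALL2, the nearest outside the 7 were ZNF404 (0.37), ZNF573 (0.39), ZNF610 (0.42), ZNF415 (0.46) and ZNF829 (0.51), all on chromosome 19. Of the 7 themselves, ZNF71 lay at 0.22 and ZNF542P at 2.16, so the members differed among themselves by more than many other genes differed from their mean. With groups this far apart, likeness over 6 samples mostly ranks genes by the size of their difference between p16 and mock cells.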

How the data were processed

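RNA of 3 p16 and 3 mock samples of Capan-1 cells had been hybridised to 1 array each. The deposited values are log2 expression levels per probe set, which the authors had normalized with GCRMA (per the submitters' processing notes; version not given in the sources used here); scanner files were not used here. GCRMA compresses unexpressed probe sets into a narrow floor, so SDs there are too small to be read and folds depend on the floor chosen. Control probe sets (62) were removed. Of the other 54613, GEO's platform annotation gave 1 gene for 41091; symbols and gene order came from RefSeq (GRCh38.p14), and probe sets with several genes were named for none.

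A probe set entered the tests if it reached 4 in at least 3 of 6 samples. p16 was compared with mock by limma 3.58.1 in R 4.3.3 (lmFit, eBayes, two-sided, no block, Benjamini-Hochberg over all probe sets tested, threshold 0.05), and the V number by a moderated F test with group in the fit. A gene took its brightest tested probe set; all-or-none patterns used the brightest on the array. The number of arrays limits the precision. Deviations from the group mean correlated between samples of the same number at 0.81, 0.75 and 0.67, which by the 0.1 rule pairs them, although the labels do not explain the number and V2 and V3 of different groups also correlated (0.42 and 0.51). The test was checked on simulated data from 24406 probe sets: for the p16 comparison it recovered 66% of log2 changes of 4, with 7 calls among unchanged probe sets. Only 200 probe sets were changed there, and the samples were drawn without a shift shared by samples of the same number. These rates therefore do not describe the test on the real data, where far more genes were called. Named genes followed a rule: the 7 genes, CDKN2A, MTAP, CDKN2B and KLHL9, the genes within 20 places on chromosome 19, up to 4 called genes per list by size of change, the 5 largest rises and falls among other chromosome 19 zinc finger genes, and the 5 nearest genes by profile; TRIM28 and SETDB1 were added for their role. Zinc finger genes were taken by symbol, and antisense and divergent transcripts were left out of that count. The members and lists were chosen with earlier results of these data known. Filters, normalization, variance model, probe set rule, replicate block and each sample left out were tried as alternatives. Python 3.11.15 was used with numpy 2.4.6, pandas 2.3.3 and matplotlib 3.10.9 for tables and plots.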

Additional observations from a re-analysis of the deposited data

How the results depend on the processing

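The differences of the 7 genes are a description. With the median of its tested probe sets ZNF667 differed by 6.89, against 7.33 with the brightest. The ZNF542P bound became at least 653-fold with a floor of 3 and at least 163-fold with a floor of 5. When the V number entered as a replicate block, the called genes numbered 7916 in place of 4895, all 4895 of them in the same direction; 18 in place of 11 other chromosome 19 zinc finger genes were lower, and 16 in place of 9 TRIM28 partner genes were called. With 1 sample left out at a time, the lower zinc finger genes numbered 7 to 9 and the called TRIM28 partner genes 3 to 11. The higher zinc finger genes numbered 56 to 90 over all alternatives run, and 73 with antisense and divergent transcripts included, a choice made after seeing the data. Without the low value filter the V number test called 1917 genes in place of 3758, and the median difference of the zinc finger genes was 0.33 in place of 0.74; the filter's absence adds genes at the floor. What moved the remaining counts was not tested.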

Other observations

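Runs of neighbouring genes with the same all-or-none pattern occurred elsewhere in the genome, but with fewer genes. Each chromosome other than Y was read in windows of 10 consecutive genes on the array in RefSeq order, 19483 windows in all, by the brightest probe set of each gene. The window from ZNF542P to ZNF71, with ZNF667-AS1 counted on its _s_at probe set, held 8 genes on in every p16 sample and off in every mock sample. This was the most of any window, and the median was 0. The count describes the interval from which the 7 genes were picked and is not a test of it. The next windows held 5 such genes each. They were the pregnancy-specific glycoprotein genes PSG4, PSG5, PSG6, PSG7 and PSG9 on chromosome 19, BASP1, CDH18 and CDH12 with 2 non-coding genes on chromosome 5, MTAP, CDKN2B, MIR31HG, ELAVL2 and TUSC1 on chromosome 9, and PASD1, MAGEA4, MAGEA6, MAGEA10 and MAGEA12 on the X chromosome. The PSG and MAGEA genes are near-identical copies, which leaves their probe sets uncertain. A second zinc finger run on chromosome 19, with ZNF702P, ZNF415, ZNF347 and ZNF677, held 4.

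Windows of the opposite kind, off in p16 and on in mock cells, reached 4 genes at most. One of these lies on chromosome 19 as well and holds NLRP2, TNNT1, TNNI3 and DNAAF3, none of them a zinc finger gene.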
